A study of Mus musculus with 12 samples.

Results

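The integrated stress response and the unfolded protein response were followed through 36 genes of the 22630 listed for each tumor, chosen by gene symbol. They comprised 3 sensors, 8 transcription factors, 4 feedback and effector genes, 6 enzymes of amino acid and one-carbon metabolism, 2 secreted stress hormones, 10 chaperones and folding factors of the endoplasmic reticulum (ER) and 3 components of ER-associated degradation. All 36 were found in every tumor and all 36 passed the filter on low counts.

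In the integrated stress response, kinases that sense different stresses phosphorylate the translation factor eIF2alpha, which slows protein synthesis in general but favors translation of the mRNA of the transcription factor ATF4. ATF4 then raises transcription of amino acid enzymes, of the factor CHOP (Ddit3) and of feedback genes. In the unfolded protein response, the ER sensors PERK (Eif2ak3), IRE1 (Ern1) and ATF6 respond to misfolded proteins. IRE1 splices the Xbp1 mRNA, and spliced XBP1 and cleaved ATF6 raise the transcription of chaperones and of the machinery that removes misfolded proteins. The exocrine pancreas, which makes digestive enzymes in bulk, is known for its dependence on this system. Counts per gene show neither the translation of Atf4, nor the splicing of Xbp1, nor the cleavage of Atf6.

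RNA was sequenced from 12 subcutaneous tumors grown from KCip53-1 cells in NSG mice of 8 to 10 weeks, a strain without T, B and natural killer cells. KCip53-1 is 1 mouse pancreatic cancer line from an engineered mouse that carried Ptf1a-Cre, TREp53R270H and R26rtTa/rtTa, in which Cre driven in the pancreatic epithelium switched on rtTa, and doxycycline (dox) switched on mutant p53R270H. All groups therefore shared the inducible transgene, and the study states that the line had lost its wild-type p53 copies. The 4 no-dox tumors never received dox, the 4 plus-dox tumors received it for 36 days at 0.2 g/l in 5% sucrose, and the 4 off-dox tumors received it for 33 days and were then kept without it for 3 days. Each mouse carried 2 tumors and the labels do not say which tumors shared a mouse, so p-values treat tumors as independent and measure the spread between them. No group had dox without the transgene, so an effect of the drug and an effect of p53R270H cannot be told apart.

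Depth was 19845923 to 33137609 reads counted on genes per tumor. By group it was 25673348 to 33137609 in no-dox, 20784597 to 30208368 in plus-dox and 19845923 to 25088486 in off-dox tumors. Every off-dox tumor was thus below every no-dox tumor in depth. The targeted gene did not separate the groups: Trp53 was measured at 40.1 to 57.4 RPKM (reads normalized to exon length and to the mapped reads of the tumor) in no-dox, 40.4 to 56.0 in plus-dox and 41.6 to 45.4 in off-dox tumors (edgeR adjusted p = 0.891 for plus-dox against no-dox). This row may sum the transgene, host cells and any remainder of the line's own gene, whose wild-type copies the study reports as lost. For subcutaneous tumors of KCip53 cells the study reports staining for dsRed, the reporter expressed with the transgene. Without dox it saw none, with dox uneven staining, and after dox was removed fewer positive cells. Whether the sequenced tumors were among those stained is not stated. The groups are used as labelled. The share of mapped reads on genes was 88.4 to 89.4% in no-dox tumors, 82.2 to 87.1% in plus-dox and 81.1 to 85.8% in off-dox tumors, so it separates the no-dox group from the others, and a repeat of the comparisons within one range of it was not possible. Plus-dox tumor 2 and off-dox tumor 4 stood apart on the first principal component, which held 49.8% of the variance of 14548 genes. They were at 0.845 and 0.554, against -0.361 to 0.052 for the other tumors. In these tumors the epithelial marker Epcam was at 7.76 and 40.9 RPKM, against 72.3 to 388 elsewhere, and Cdh1, Krt7, Cldn7 and Esrp1 were also lowest there. Krt19 was lowest in off-dox tumor 4 and Cldn4 in plus-dox tumor 2. Krt8, at 532 and 525 RPKM, and Krt18, at 608 and 752, lay within the ranges of the other tumors (318 to 972.5 and 391 to 947). Values without both tumors are given where a result rests on them. The tumors were whole and unsorted. Of 8 markers of pancreatic acinar cells, Cela2a, Cel, Amy2b and Ptf1a were listed at 0 in every tumor, while Cela1 was measured at 6.26 to 116 RPKM and is given by tumor beside Xbp1.

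No member passed the edgeR test between any 2 groups. In plus-dox against no-dox tumors 0 of 36 were called, that is, had an edgeR adjusted p under 0.1, a change over 1.5-fold and a mean over 0.25 RPKM in a gene over 250 bp long, and 0.0% of the 17561 genes tested were called. At an unadjusted p under 0.05 there were 5 of 36 members (13.7% of all genes), 3 of them lower in plus-dox (5.67% of all genes were lower at this threshold). In off-dox against no-dox tumors 0 of 36 members were called against 1.34% of all genes, and 6 had an unadjusted p under 0.05 (20.4% of all genes), 4 of them lower (9.48%). In off-dox against plus-dox tumors 0 of 36 were called and 0.0% of all genes, and 0 of 36 had an unadjusted p under 0.05 (3.06%). By DESeq2 without moderated fold changes 1 member was called in plus-dox against no-dox (Fgf21), 1 in off-dox against no-dox (Xbp1) and 0 in off-dox against plus-dox.

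By direction alone, 21 of 36 members were lower in plus-dox than in no-dox tumors (48.6% of all genes), 18 of 36 were lower in off-dox than in no-dox (49.3%), and 12 of 36 were lower in off-dox than in plus-dox (50.1%). The median log2 fold change of the members was -0.07, -0.0002 and 0.08 in these comparisons, beside 0.01, 0.01 and -0.0005 for all genes. Every pair of these comparisons shares the 4 tumors of one group. On the log2 CPM scale (counts scaled to the library size as adjusted by TMM normalization) the groups did not overlap for 4 members in plus-dox against no-dox (8.86% of all genes). All 4 were lower in plus-dox (4.49%). In off-dox against no-dox this held for 1 member (11.5% of all genes) and for 0 that were lower (5.69%), and in off-dox against plus-dox for 0 members (1.4%). In RPKM the directions were mixed. In plus-dox against no-dox 5 members were without overlap (7.77% of all genes), 3 lower (Dnajb9, Dnajc3 and Pdia4) and 2 higher (Ern1 and Atf5), beside 3.46% and 4.3% of all genes. There were also 5 in off-dox against no-dox (11.4%), 3 lower (Dnajc3, Pdia4 and Calr) and 2 higher (Chac1 and Edem1), beside 6.4% and 4.99%, and in off-dox against plus-dox 0 (1.49%, of which 0.934% lower and 0.552% higher). The heat map of all members by tumor shows these small differences beside the larger spread between tumors of one group.

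**Figure D1:**
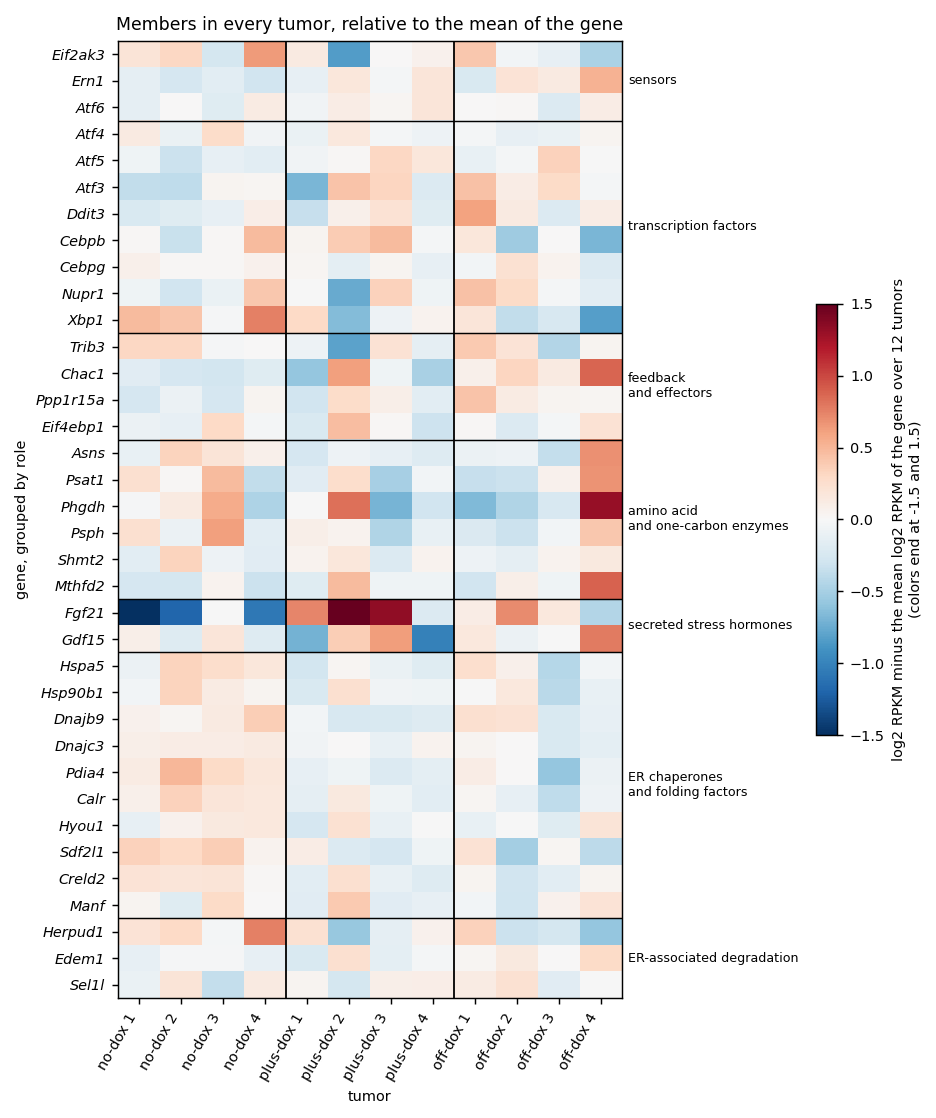
Level of the 36 members in each of the 12 tumors, as log2 RPKM minus the mean of that gene over the tumors (color), with genes in rows grouped by role and tumors in columns grouped by treatment. Fgf21 has the widest range, the chaperones are mostly red in no-dox tumors, and Phgdh is highest in off-dox tumor 4.

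The sensors were present at similar, moderate levels. Ern1 (chr11:106258934-106349110, minus strand, mm9), which encodes the kinase and endoribonuclease IRE1, was at 11.05, 10.2, 10.9 and 10.01 RPKM in the no-dox tumors, 11.1, 13.7, 11.97 and 13.8 in the plus-dox tumors and 10.4, 14.1, 13.4 and 17.5 in the off-dox tumors. In RPKM all plus-dox tumors lay above the no-dox range, tumor 1 by a small margin, while on log2 CPM these groups overlapped. Off-dox tumor 1 lay within the no-dox range in RPKM and the other 3 off-dox tumors above it. The log2 fold change was 0.43 ± 0.15 (SE, n = 4 per group) in off-dox against no-dox (edgeR adjusted p = 0.149) and 0.27 ± 0.15 in plus-dox against no-dox (adjusted p = 0.421). Neither passed, and a change of 1.5-fold was not reached. Eif2ak3, the PERK kinase, spanned 6.51 to 18.2 RPKM over the 12 tumors and Atf6, the membrane-bound factor, 7.75 to 10.1. In every pair both overlapped between the groups, with unadjusted p of 0.16 or more.

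Atf4 (chr15:80085614-80087971, plus strand), the central factor of the integrated stress response, was expressed at 112, 95.01, 123 and 97.9 RPKM in the no-dox tumors, 95.2, 114, 100.005 and 96.2 in the plus-dox and 99.6, 93.2, 94.9 and 104 in the off-dox tumors. The 3 groups overlapped, with the highest value in no-dox tumor 3 and the lowest in off-dox tumor 2. It differed from the no-dox tumors by a log2 fold change of -0.07 ± 0.12 in plus-dox (adjusted p = 0.798) and -0.10 ± 0.12 in off-dox tumors (adjusted p = 0.66). Ddit3 (chr10:126727849-126733276, plus strand), which encodes the pro-apoptotic factor CHOP, was at 25.2, 26.1, 27.1 and 31.6 RPKM in the no-dox tumors, 23.2, 31.2, 34.1 and 25.99 in the plus-dox and 44.8, 32.2, 25.6 and 31.9 in the off-dox tumors. Off-dox tumor 1 alone stood above the range of the other groups. Ddit3 had a log2 fold change of 0.07 ± 0.19 in plus-dox (adjusted p = 0.868) and 0.31 ± 0.19 in off-dox tumors (adjusted p = 0.36).

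Xbp1 (chr11:5420970-5425875, plus strand) had the largest differences from no-dox tumors among the 8 transcription factors. It was measured at 196, 187, 139 and 238 RPKM in no-dox tumors, 173, 89.3, 133 and 146 in plus-dox tumors and 159.9, 109, 118 and 79.1 in off-dox tumors. The highest value was in no-dox tumor 4 and the lowest values were in off-dox tumor 4 and plus-dox tumor 2, while no-dox tumor 3 lay among the treated tumors. The group means were 189.7 ± 40.6, 135 ± 34.97 and 117 ± 33.4 RPKM (SD, n = 4 each). The log2 fold change was -0.68 ± 0.23 in off-dox (adjusted p = 0.146) and -0.48 ± 0.23 in plus-dox against no-dox tumors (adjusted p = 0.381), and -0.20 ± 0.23 between off-dox and plus-dox (adjusted p = 1.0). Xbp1 was not called by edgeR but was called in off-dox against no-dox tumors by DESeq2 without moderated fold changes (adjusted p = 0.0613), by limma-voom (0.0514) and by edgeR without off-dox tumor 1 (log2 fold change -0.86, adjusted p = 0.0643). Without plus-dox tumor 2 and off-dox tumor 4 its log2 fold change was -0.54 in off-dox and -0.33 in plus-dox against no-dox tumors.

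Some epithelial markers also differed between the groups. The summed level of 9 epithelial markers was 2289 to 3054 RPKM in the no-dox tumors, 1363 to 2012 in the plus-dox and 1054 to 2623 in the off-dox tumors, none of the 9 at 0. The plus-dox sums were thus all below the no-dox sums. Most of each sum was Krt8 and Krt18. Krt8, Krt18 and Epcam were lower in every plus-dox than in every no-dox tumor, while Cdh1, Krt19, Krt7, Cldn4, Cldn7 and Esrp1 overlapped. Cldn7 was at 0.576, 0.105, 5.52 and 7.65 RPKM in the plus-dox tumors, against 1.09 to 4.65 in the no-dox tumors. Of the acinar markers, Cela1, a pancreatic elastase, was at 95.1, 92.2, 58.1 and 116 RPKM in the no-dox tumors, 74.2, 6.26, 34.01 and 45.5 in the plus-dox and 95.4, 33.6, 32.9 and 8.12 in the off-dox tumors. Like Xbp1 it was highest in no-dox tumor 4 and lowest in plus-dox tumor 2 and off-dox tumor 4. The other 7 acinar markers were at or near 0 in every tumor, none above 0.174 RPKM. In whole tumors fewer cells of a type and less RNA per cell cannot be told apart, and the part of the epithelial share, or of cells with Cela1, in the level of Xbp1 or of any other member was not tested.

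Atf5 (chr7:52067626-52072028, minus strand), a relative of Atf4 linked to the mitochondrial stress response, was at 21.9, 18.4, 21.1 and 20.5 RPKM in the no-dox tumors, 22.2, 23.3, 28.3 and 25.9 in the plus-dox and 21.3, 22.5, 29.2 and 22.9 in the off-dox tumors. In RPKM every plus-dox tumor lay above the no-dox tumors, but the margin was small. Its log2 fold change in plus-dox was 0.30 ± 0.13 (adjusted p = 0.35), and it changed sign, to -0.04, with the share of reads on genes in the model. Cebpb (chr2:167514415-167515918, plus strand), a basic leucine zipper factor that can dimerize with CHOP, had the smallest p between off-dox and plus-dox tumors. It was at 11.8, 9.21, 11.8 and 16.2 RPKM in the no-dox tumors, 11.97, 15.1, 16.2 and 11.4 in the plus-dox and 13.1, 8.03, 11.75 and 7.27 in the off-dox tumors, with the off-dox tumors 1 and 3 inside the plus-dox range. This was a log2 fold change of -0.44 ± 0.23 in off-dox against plus-dox tumors (adjusted p = 1.0). Of the remaining factors, Atf3 spanned 4.73 to 10.3 RPKM, Cebpg, a partner of ATF4, 12.5 to 16.9 and Nupr1, a small stress-induced chromatin protein, 48.2 to 110.1. None of these 3 differed between groups at an unadjusted p under 0.05.

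Target genes of ATF4 carry the C/EBP-ATF response element, written TGATGNAA on either strand. In promoter windows of 250 bases before to 50 after the start, from RefSeq (GRCm38.p6), these letters were in 3.97% of 32851 windows. Some genes have more than 1 window, and by gene the letters were in 4.51% of 27025 genes. Of the 36 members 32 had a window, and 7 of them held the letters, namely Asns, Atf3, Chac1, Fgf21, Herpud1, Nupr1 and Trib3. The stretches are shown because they belong to the genes whose levels follow, on the strand of each gene, 5′ to 3′, with the match in capitals. They occurred once, without a mismatch, in mm9, at the positions given.
Atf3, chr1:193007290-193007347, minus strand: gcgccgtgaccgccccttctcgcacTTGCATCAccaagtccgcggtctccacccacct
Nupr1, chr7:133769062-133769119, minus strand: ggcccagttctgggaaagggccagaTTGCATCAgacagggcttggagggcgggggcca
Chac1, chr2:119176760-119176817, plus strand: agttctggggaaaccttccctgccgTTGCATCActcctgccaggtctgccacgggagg
Trib3, chr2:152169764-152169793, minus strand: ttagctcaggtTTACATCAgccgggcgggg
Asns, chr6:7643210-7643257, minus strand: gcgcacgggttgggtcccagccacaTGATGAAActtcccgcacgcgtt
Fgf21, chr7:52870861-52871110, minus strand: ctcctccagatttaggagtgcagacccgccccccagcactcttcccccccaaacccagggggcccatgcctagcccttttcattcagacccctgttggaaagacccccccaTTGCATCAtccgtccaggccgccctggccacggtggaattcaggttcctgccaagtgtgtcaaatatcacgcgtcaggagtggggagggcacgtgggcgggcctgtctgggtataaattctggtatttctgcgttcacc

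The match lies at positions -110 to -103 in both Atf3 and Nupr1 and at -193 to -186 in Chac1, counted from the start base as 0, and within the transcript at 14 to 21 in Trib3. A match is a description of the letters and says nothing on binding in these tumors. The estimates of the 7 genes with these letters had both signs. In off-dox against no-dox tumors their log2 fold changes were 0.00 for Asns, 0.39 for Atf3, 0.64 for Chac1, 1.08 for Fgf21, -0.48 for Herpud1, 0.16 for Nupr1 and -0.05 for Trib3.

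Chac1 (chr2:119176978-119180062, plus strand), which encodes a glutathione-degrading enzyme and is a target of the ATF4 and CHOP axis, was the one member without overlap on log2 CPM in off-dox against no-dox tumors. Its values were 2.26, 2.15, 2.10 and 2.25 RPKM in the no-dox tumors, 1.71, 3.90, 2.44 and 1.83 in the plus-dox and 2.70, 3.19, 2.80 and 4.67 in the off-dox tumors. The no-dox tumors lay close together, while plus-dox tumors fell on both sides of them, with tumor 2 high. The log2 fold change in off-dox against no-dox was 0.64 ± 0.29 (adjusted p = 0.23) and 0.42 without plus-dox tumor 2 and off-dox tumor 4. Against plus-dox it was 0.45 ± 0.28 (adjusted p = 1.0). Eif4ebp1 (chr8:28370799-28386128, plus strand), which encodes the translation inhibitor 4E-BP1, was the most abundant of the 4 feedback and effector genes. It was at 52.1, 50.6, 67.9 and 54.04 RPKM in the no-dox tumors, 47.2, 75.9, 55.97 and 44.5 in the plus-dox and 55.9, 47.8, 54.2 and 64.3 in the off-dox tumors, with complete overlap. Its log2 fold changes were 0.01 ± 0.19 in plus-dox (adjusted p = 0.989) and 0.01 ± 0.19 in off-dox against no-dox tumors (adjusted p = 0.975). Trib3, a pseudokinase that restrains ATF4, spanned 4.10 to 9.40 RPKM, and Ppp1r15a, the GADD34 subunit that directs dephosphorylation of eIF2alpha, 9.45 to 15.5. Neither reached an unadjusted p under 0.05 in any pair.

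The enzymes of serine, asparagine and one-carbon metabolism varied more between tumors than between groups. Asns (chr6:7625171-7643182, minus strand), asparagine synthetase, was at 10.4, 14.04, 12.7 and 11.8 RPKM in the no-dox tumors, 9.36, 10.6, 10.2 and 9.77 in the plus-dox and 10.5, 10.6, 8.69 and 17.9 in the off-dox tumors. Off-dox tumor 4 was the highest of all 12 and off-dox tumor 3 the lowest. Between off-dox and plus-dox the log2 fold change was 0.28 ± 0.21 (adjusted p = 1.0), and without plus-dox tumor 2 and off-dox tumor 4 it was 0.03. Phgdh (chr3:98117094-98143892, minus strand), the first enzyme of serine synthesis, was the most abundant of the 6 enzymes. It was at 84.2, 93.3, 126 and 61.9 RPKM in the no-dox tumors, 85.2, 151, 52.7 and 69.7 in the plus-dox and 53.9, 62.2, 72.4 and 211 in the off-dox tumors, with off-dox tumor 4 and plus-dox tumor 2 the highest. Phgdh had a log2 fold change of -0.02 ± 0.45 in plus-dox (adjusted p = 0.983) and 0.18 ± 0.45 in off-dox against no-dox tumors (adjusted p = 0.85), and became -0.41 and -0.53 without these tumors.

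Psat1 and Psph, the next enzymes of serine synthesis, spanned 16.96 to 38.2 and 8.98 to 18.9 RPKM. Shmt2 and Mthfd2, of the mitochondrial one-carbon pathway, spanned 17.2 to 24.9 and 6.27 to 14.4 RPKM. Off-dox tumor 4 was the highest of the 12 tumors on log2 CPM for 4 of the 6 enzymes, Asns, Psat1, Phgdh and Mthfd2. The median log2 fold change of the 6 in off-dox against no-dox was 0.02, with 2 of 6 lower, and it was -0.29, with 5 of 6 lower, without plus-dox tumor 2 and off-dox tumor 4. None of the 6 had an unadjusted p under 0.05 in any of the 3 pairs with all tumors included.

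**Figure D2:**
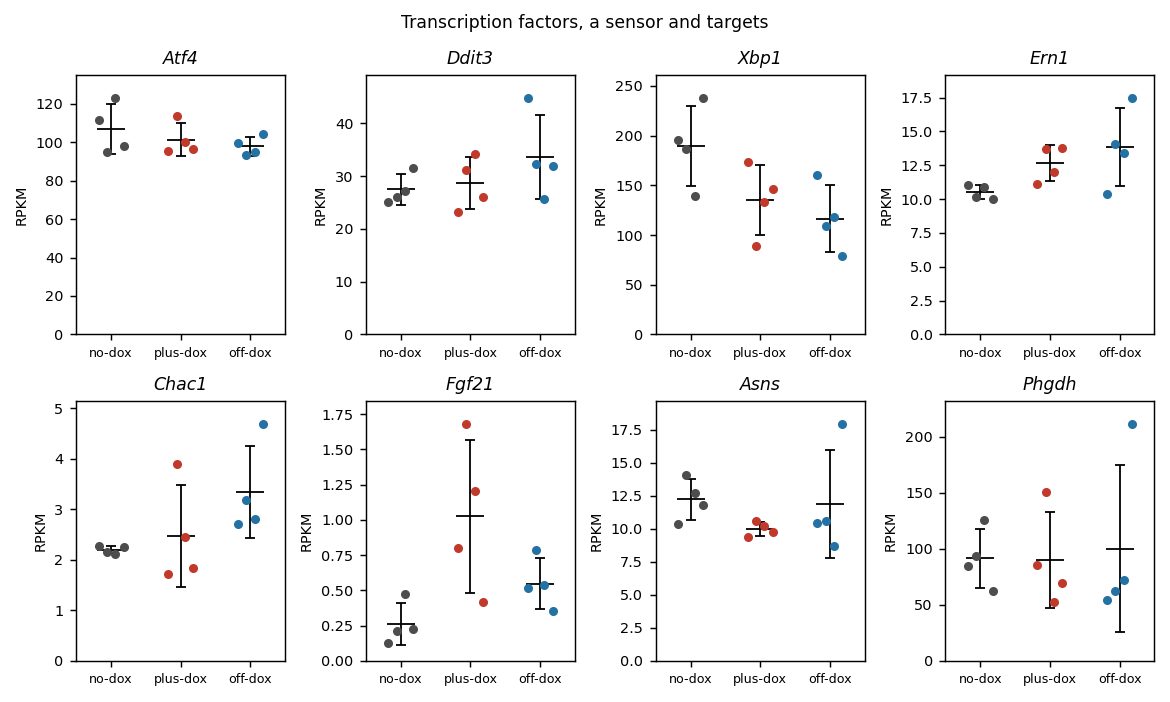
RPKM of 3 transcription factors (Atf4, Ddit3, Xbp1), the sensor Ern1 and 4 targets (Chac1, Fgf21, Asns, Phgdh) in each tumor (points), with the group mean and SD (bars, n = 4), on axes that start at 0. Xbp1 is lower and Ern1 higher in most off-dox tumors than in no-dox tumors with overlap between the groups, and single tumors are high for Phgdh and Asns.

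Fgf21 (chr7:52869260-52870860, minus strand), a hormone that ATF4 induces in liver, muscle and the exocrine pancreas, had the largest fold change of the members and the lowest level. Its counts were 4, 6, 13 and 8 reads in the no-dox tumors, 18, 52, 42 and 10 in the plus-dox tumors and 12, 18, 13 and 10 in the off-dox tumors. In RPKM these were 0.124, 0.210, 0.477 and 0.228 in the no-dox tumors, 0.796, 1.68, 1.21 and 0.416 in the plus-dox and 0.516, 0.786, 0.534 and 0.352 in the off-dox tumors. Plus-dox tumors 1 to 3 lay above every no-dox tumor and plus-dox tumor 4 did not. The log2 fold change in plus-dox against no-dox was 1.996 ± 0.51 (adjusted p = 0.322), the smallest p of the 36 members in this pair, and it did not pass. DESeq2 called it with unmoderated (log2 fold change 2.02, adjusted p = 0.0637) and with moderated fold changes (0.88, adjusted p = 0.0728). Without plus-dox tumor 2 and off-dox tumor 4 edgeR gave 1.66. In off-dox against plus-dox the log2 fold change was -0.91 ± 0.49 (adjusted p = 1.0).

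At 4 to 52 reads per tumor the counting error alone is large. Skeletal muscle is a known source of Fgf21, and the summed level of 9 muscle markers was 10.8 to 192 RPKM in the no-dox tumors, 159 to 502 in the plus-dox and 13.0 to 1351 in the off-dox tumors, none of the 9 at 0. Off-dox tumor 3, with the highest muscle sum, had 13 reads of Fgf21, and plus-dox tumor 2, with the highest Fgf21, had a muscle sum of 502 RPKM. The summed level of 7 adipose markers was 14.2 to 1100.4 RPKM in the no-dox tumors, 26.1 to 691 in the plus-dox and 34.9 to 318 in the off-dox tumors. The part of these tissues in the level of Fgf21 was not tested. Gdf15 (chr8:73153293-73155534, minus strand), the other stress hormone, was at 2.28, 1.88, 2.44 and 1.88 RPKM in the no-dox tumors, 1.31, 2.79, 3.31 and 1.06 in the plus-dox and 2.40, 2.03, 2.14 and 3.69 in the off-dox tumors. Plus-dox tumors lay on both sides of the no-dox range, and the log2 fold change was 0.04 ± 0.37 in plus-dox (adjusted p = 0.968) and 0.31 ± 0.37 in off-dox against no-dox tumors (adjusted p = 0.659).

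The 10 ER chaperones and folding factors included the most abundant members, Calr, Hspa5 and Hsp90b1, and each had a lower estimate in both dox-treated groups than without dox. In plus-dox against no-dox 10 of 10 were lower (48.6% of all genes), with a median log2 fold change of -0.21 (0.01 for all genes). Of these, 3 had an unadjusted p under 0.05 (5.67% of all genes were lower at this threshold) and 0 were called (0.0%). In off-dox against no-dox 10 of 10 were lower (49.3% of all genes), with a median of -0.17 (0.01 for all genes). Of these, 3 had an unadjusted p under 0.05 (9.48% of all genes were lower at this threshold) and 0 were called (1.34%). These 3 became 1 with the 8 tumors of the pair alone, 0 without no-dox tumor 3 and 4 by limma-voom. With the share of reads on genes as a covariate the number was 0 in both comparisons. Both comparisons use the same 4 no-dox tumors. In off-dox against plus-dox 5 of 10 were lower (50.1% of all genes), with a median of -0.01.

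The size of this difference depended on which tumors and which covariates were used. Without plus-dox tumor 2 and off-dox tumor 4 the median was -0.30 in plus-dox and -0.17 in off-dox against no-dox tumors, with 10 of 10 lower in each. Under normalization by relative log expression it was 10 of 10 in each. With the share of reads on genes as a covariate 9 of 10 were lower in plus-dox (median -0.06, Manf higher) and 5 of 10 in off-dox (median -0.01), and this share separates the no-dox tumors from the rest. Leaving out no-dox tumor 3, plus-dox tumor 1 or plus-dox tumor 4 put Manf above 0 in plus-dox. Leaving out no-dox tumor 3 or off-dox tumor 2 put Manf, and leaving out no-dox tumor 4 put Dnajb9, above 0 in off-dox. Leaving out off-dox tumor 3 moved the off-dox median to -0.09. Of the epithelial marker sums given above, all plus-dox sums were below the no-dox sums, while the off-dox sums overlapped them. Plus-dox tumor 2 had the lowest epithelial sum of its group (1363 RPKM). Its summed chaperone level was the highest of its group (1425 RPKM, against 1157 to 1226). The part of the epithelial share in the chaperone levels was not tested.

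XBP1 and ATF6 act on many chaperone genes through the ER stress response element, written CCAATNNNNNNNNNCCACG, searched on both strands. These letters were in 0.119% of the 32851 promoter windows and, by gene, in 0.137% of the genes with a window. They were in 5 of the 8 chaperone genes with a window, Calr, Creld2, Dnajc3, Hsp90b1 and Hspa5, and in 0 of the 24 other members with a window. The shorter element TGACGTGG, a site of XBP1, was in 0 of the 32 members, in 0.676% of windows and in 0.714% of genes. This says only that these letters are not in the windows of the members. The element-bearing stretches are shown because these genes form the one role in which every estimate was lower, with the element in capitals and positions as above.
Hspa5, chr2:34627360-34627609, plus strand: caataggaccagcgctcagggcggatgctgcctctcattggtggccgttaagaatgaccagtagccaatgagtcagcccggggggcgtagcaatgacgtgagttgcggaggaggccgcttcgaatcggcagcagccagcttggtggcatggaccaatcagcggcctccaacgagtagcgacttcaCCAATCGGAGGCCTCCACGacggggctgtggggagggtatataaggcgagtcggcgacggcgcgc
Hsp90b1, chr10:86168253-86168426, minus strand: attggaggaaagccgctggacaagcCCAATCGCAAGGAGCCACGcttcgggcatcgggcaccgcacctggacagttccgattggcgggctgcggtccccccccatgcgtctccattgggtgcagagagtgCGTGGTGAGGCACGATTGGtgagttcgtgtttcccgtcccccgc
Calr, chr8:87370949-87371017, minus strand: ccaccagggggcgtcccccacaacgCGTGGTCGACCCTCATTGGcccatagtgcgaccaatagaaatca
Dnajc3, chr14:119337024-119337092, plus strand: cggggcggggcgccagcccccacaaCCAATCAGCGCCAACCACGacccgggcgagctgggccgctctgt
Creld2, chr15:88649925-88649993, plus strand: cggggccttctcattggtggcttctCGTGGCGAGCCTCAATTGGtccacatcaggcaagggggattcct

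Hsp90b1 holds the element once on each strand. The 5 genes with the element had log2 fold changes in plus-dox against no-dox of -0.29 for Hspa5, -0.13 for Hsp90b1, -0.23 for Calr, -0.13 for Dnajc3 and -0.18 for Creld2. The 3 chaperones with a window and without these letters, Dnajb9, Pdia4 and Sdf2l1, were the 3 chaperones with an unadjusted p under 0.05 in this pair.

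Pdia4 (chr6:47746140-47763511, minus strand), a protein disulfide isomerase, had the largest difference of the chaperones in plus-dox. It was at 84.5, 109.7, 95.1 and 87.6 RPKM in the no-dox tumors, 71.3, 74.4, 67.3 and 70.1 in the plus-dox and 84.2, 77.8, 51.8 and 73.1 in the off-dox tumors. In RPKM all plus-dox and all off-dox tumors lay below the lowest no-dox tumor, in off-dox by a small margin. Its log2 fold change was -0.40 ± 0.14 in plus-dox (adjusted p = 0.326) and -0.36 ± 0.14 in off-dox against no-dox tumors (adjusted p = 0.184). Dnajb9 (chr12:45306884-45311055, minus strand), the cochaperone ERdj4, was at 31.1, 30.3, 32.7 and 38.5 RPKM in the no-dox tumors, 28.9, 25.1, 25.3 and 26.01 in the plus-dox and 35.1, 34.5, 25.4 and 27.2 in the off-dox tumors. Plus-dox tumors lay below all no-dox tumors, and off-dox tumors fell on both sides of the gap, tumors 1 and 2 high and tumors 3 and 4 low. Dnajb9 had a log2 fold change of -0.33 ± 0.13 in plus-dox against no-dox (adjusted p = 0.334) and 0.23 ± 0.13 in off-dox against plus-dox (adjusted p = 1.0).

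Sdf2l1 (chr16:17130231-17132476, minus strand), a partner of ERdj cochaperones, was at 49.5, 47.7, 49.96 and 40.3 RPKM in the no-dox tumors, 41.9, 33.7, 32.7 and 37.2 in the plus-dox and 45.1, 27.2, 39.8 and 29.5 in the off-dox tumors. No-dox tumor 4 was below plus-dox tumor 1 in RPKM, whereas the log2 CPM of these groups did not overlap. Its log2 fold change was -0.36 ± 0.15 in plus-dox (adjusted p = 0.34) and -0.38 ± 0.15 in off-dox against no-dox tumors (adjusted p = 0.179). Calr (chr8:87365987-87370830, minus strand), the lectin chaperone calreticulin, had the highest mean of all 36 members. It was at 473, 573, 509 and 502 RPKM in the no-dox tumors, 409.7, 496, 428 and 403 in the plus-dox and 459, 412, 346 and 425 in the off-dox tumors, so that in RPKM all off-dox tumors lay below the no-dox tumors. Its log2 fold change was -0.29 ± 0.13 in off-dox (adjusted p = 0.222) and -0.23 ± 0.13 in plus-dox against no-dox tumors (adjusted p = 0.427).

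Among the other chaperones, Dnajc3, the PERK inhibitor p58IPK, had the tightest no-dox values, 24.4, 24.9, 24.8 and 25.3 RPKM, and was without overlap on log2 CPM in plus-dox, at 22.1, 23.1, 21.3 and 23.9 RPKM, with a log2 fold change of -0.13 ± 0.08. Hspa5, the central chaperone BiP, spanned 243 to 410.2 RPKM and Hsp90b1, the chaperone GRP94, 199.6 to 335. Hyou1, a large ER chaperone, spanned 23.7 to 33.1 RPKM, Creld2 22.7 to 32.6 and the secreted factor Manf 36.5 to 58.8. These 6 had unadjusted p values of 0.0766 or more in every pair. Off-dox tumor 3 was the lowest of the 12 tumors on log2 CPM for Hspa5, Hsp90b1, Dnajc3, Pdia4 and Calr. Its epithelial marker sum, 1054 RPKM, was also the lowest, while Epcam was lower in plus-dox tumor 2 and off-dox tumor 4. A link between the chaperones and the epithelial markers was not tested.

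**Figure D3:**
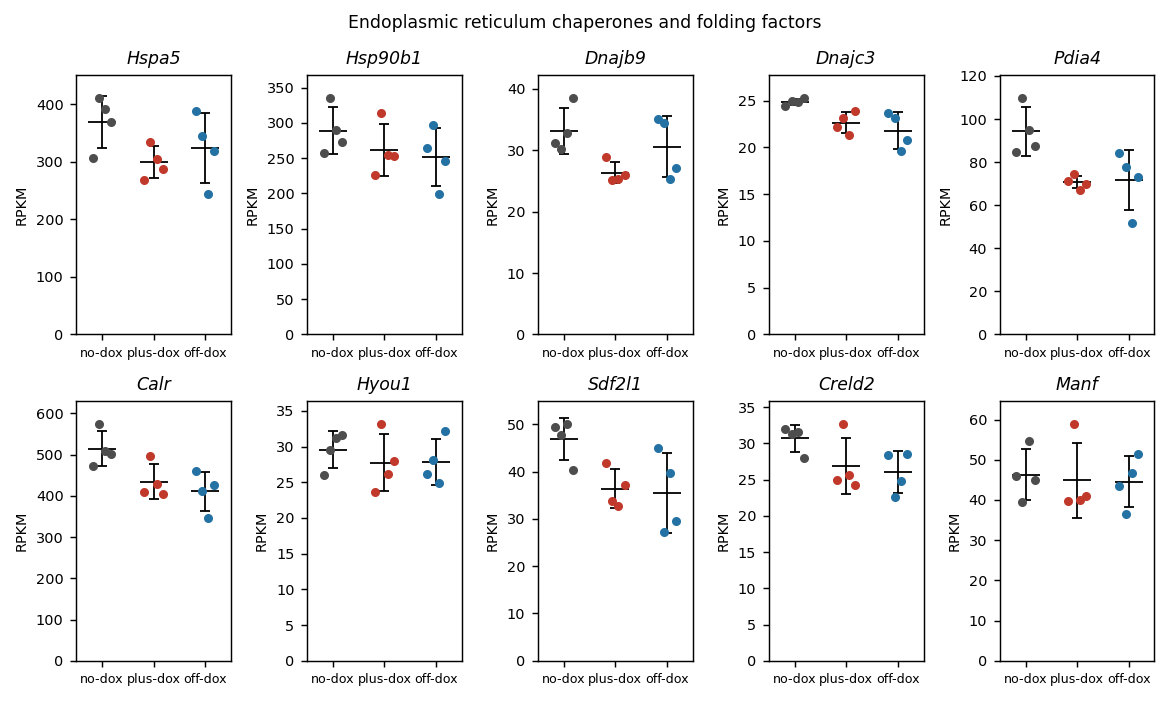
RPKM of the 10 ER chaperones and folding factors in each tumor (points), with the group mean and SD (bars, n = 4), on axes that start at 0. The plus-dox mean lies below the no-dox mean in every panel and for Pdia4, Dnajb9 and Dnajc3 the plus-dox tumors lie below all no-dox tumors.

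Of the 3 genes of ER-associated degradation, Herpud1 (chr8:96910400-96919258, plus strand), a membrane protein of the degradation complex, was the most abundant. Its promoter window held the C/EBP-ATF letters at -112 to -105 and a second ER stress response element, ATTGGNCCACG, at -52 to -42, the one member with both. The second element was found in 0.0365% of windows and 0.0444% of genes. It is shown up to the base before the start, with both in capitals.
Herpud1, chr8:96910079-96910328, plus strand: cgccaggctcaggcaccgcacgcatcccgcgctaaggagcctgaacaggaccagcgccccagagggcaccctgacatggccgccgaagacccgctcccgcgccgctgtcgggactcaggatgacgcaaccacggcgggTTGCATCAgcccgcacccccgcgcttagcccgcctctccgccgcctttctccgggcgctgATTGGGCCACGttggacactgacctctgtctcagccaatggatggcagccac

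Herpud1 was at 50.1, 53.6, 42.5 and 73.6 RPKM in the no-dox tumors, 50.8, 29.4, 39.7 and 45.3 in the plus-dox and 55.2, 34.9, 36.1 and 29.1 in the off-dox tumors. No-dox tumor 4 was the highest, and plus-dox tumor 2 and off-dox tumor 4 were the lowest. Herpud1 had a log2 fold change of -0.48 ± 0.22 in off-dox (adjusted p = 0.246) and -0.41 ± 0.22 in plus-dox against no-dox tumors (adjusted p = 0.421). Without off-dox tumor 1 it was called in off-dox, at -0.69 (adjusted p = 0.0835). Edem1 (chr6:108778635-108809350, plus strand), which hands misfolded glycoproteins to degradation, was at 15.1, 16.2, 16.2 and 15.1 RPKM in the no-dox tumors, 14.05, 19.4, 14.9 and 16.2 in the plus-dox and 16.7, 18.2, 16.5 and 20.02 in the off-dox tumors. Its log2 fold change in off-dox against plus-dox was 0.17 ± 0.12 (adjusted p = 1.0). Sel1l, the adaptor of the ubiquitin ligase HRD1, spanned 13.4 to 20.2 RPKM, with unadjusted p values of 0.471 or more in every pair.

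**Figure D4:**
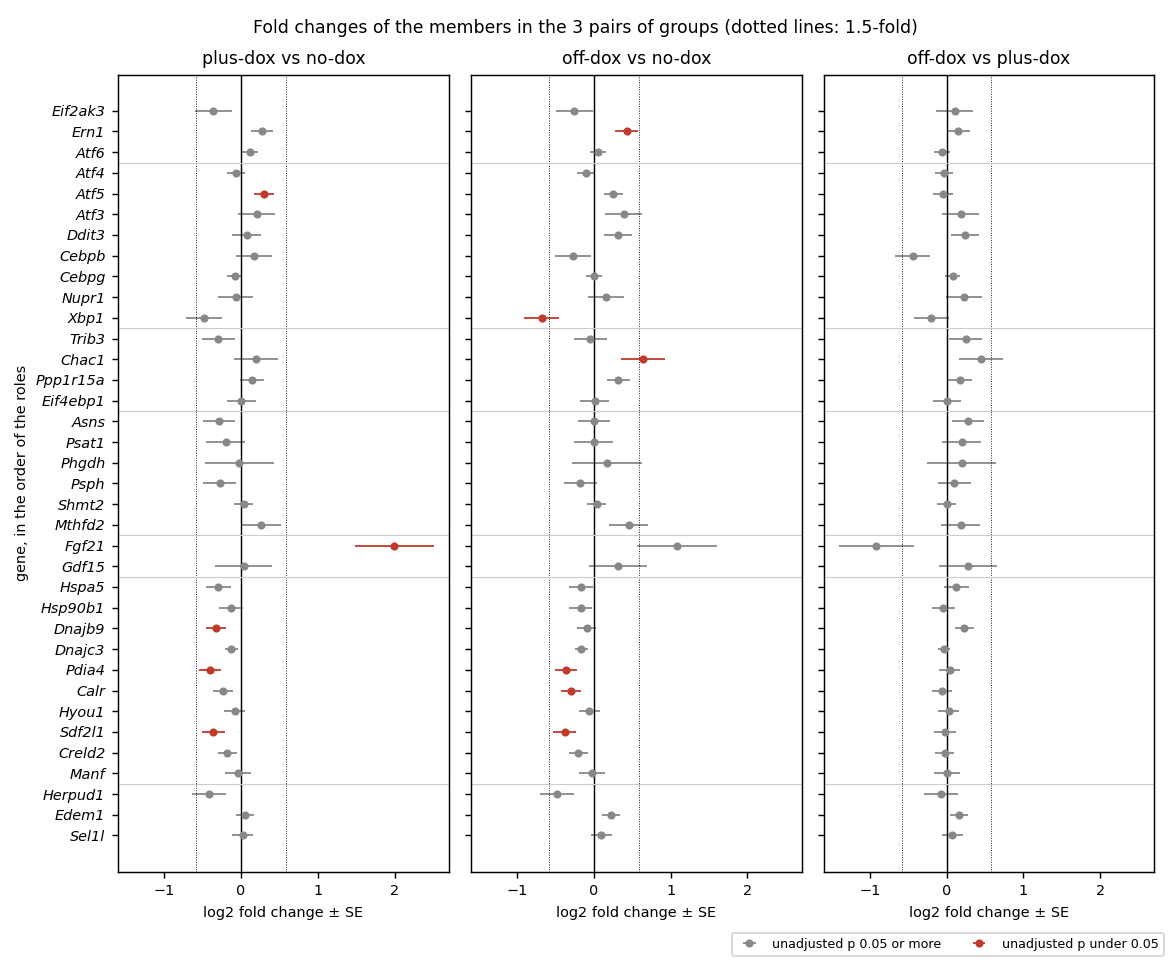
Log2 fold change with its SE for each of the 36 members (rows, in the order of the roles) in the 3 pairs of groups (panels). Dotted lines mark 1.5-fold and red marks an unadjusted p under 0.05, which 5 members have in plus-dox and 6 in off-dox against no-dox tumors and 0 in off-dox against plus-dox.

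The highest and lowest values of the members were spread unevenly over the tumors. On log2 CPM off-dox tumor 4 was the highest of the 12 tumors for 10 members, Ern1, Atf6, Chac1, Asns, Psat1, Phgdh, Mthfd2, Gdf15, Hyou1 and Edem1, while 10.8% of all genes were highest there. Plus-dox tumor 1 was the lowest for 6 members, Atf3, Ddit3, Chac1, Ppp1r15a, Hyou1 and Edem1, while 3.59% of all genes were lowest there. Plus-dox tumor 2, with 5 of 36 members highest and 4 of 36 lowest, was below the shares of all genes. It was the highest for Atf3, Eif4ebp1, Fgf21, Creld2 and Manf (14.1% of all genes) and the lowest for Eif2ak3, Nupr1, Trib3 and Herpud1 (16.9% of all genes). Off-dox tumor 3 was the lowest for 7 members (9.85% of all genes), 5 of them chaperones. No-dox tumor 4 was the highest for Eif2ak3, Nupr1, Xbp1, Dnajb9, Dnajc3 and Herpud1 (10.7% of all genes).

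In the wider pathway too, no gene was called. A list of 89 further genes held 8 genes of the mitochondrial stress response, Clpp and Trap1 among them, and otherwise genes of both responses. Of these 89, 88 were tested and 0 were called in any of the 3 pairs. In plus-dox against no-dox 2 of 88 were higher and 11 lower at an unadjusted p under 0.05, beside 8.0% of all genes higher and 5.67% lower. Of the 88, 2 were higher and 18 lower in off-dox against no-dox, beside 10.9% and 9.48% of all genes. In off-dox against plus-dox 0 were higher and 2 lower, beside 1.25% and 1.81%. The median log2 fold change of the 88 was -0.05, -0.04 and -0.02 in these pairs. Of the 12 other ER folding factors 10 were lower in each of the comparisons with no-dox tumors (48.6% and 49.3% of all genes), with medians of -0.16 and -0.27. At an unadjusted p under 0.05, 3 and 4 of them were lower, beside the 5.67% and 9.48% of all genes given above. Ero1lb was higher in off-dox (edgeR unadjusted p = 0.0205). Of the 12 aminoacyl-tRNA synthetases, which ATF4 is known to induce, 0 had an unadjusted p under 0.05 in any pair.

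The smallest p values in plus-dox against no-dox belonged to Spcs2, a subunit of the signal peptidase (log2 fold change -0.41 ± 0.10), Clpp, the mitochondrial matrix protease (-0.40 ± 0.11), and Trap1, a mitochondrial chaperone (-0.33 ± 0.10), each with an adjusted p of 0.322. In off-dox against no-dox they belonged to Clpp (-0.49 ± 0.11, adjusted p = 0.0842), Ssr2, a subunit of the translocon-associated protein complex (-0.48 ± 0.12, adjusted p = 0.0896), and Spcs2 (-0.42 ± 0.10, adjusted p = 0.0897). Trap1 (-0.40 ± 0.10, adjusted p = 0.0897) and Eif2b5, a subunit of the exchange factor eIF2B (-0.43 ± 0.12, adjusted p = 0.095), also had an adjusted p under 0.1. All of these genes were lower in off-dox. The share of all genes under this limit alone was not counted, so their number is not read as a result about the list. None of these genes reached 1.5-fold, so they were not called. Clpp was at 31.9 ± 2.26 RPKM in the no-dox tumors, 23.98 ± 2.01 in the plus-dox and 22.3 ± 3.34 in the off-dox tumors (SD, n = 4). Between off-dox and plus-dox the smallest p values belonged to Creb3l1, an ER-anchored transcription factor (-0.42 ± 0.15), Aldh1l2, a mitochondrial folate enzyme (-0.69 ± 0.30), and Slc7a11, the cystine transporter (0.70 ± 0.35), each with an adjusted p of 1.0.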

How the data were processed

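Libraries were PolyA+ and not strand-specific, from whole tumors, read as 50-bp single ends on an Illumina HiSeq 4000. The authors mapped reads to mm9 with TopHat 1.4.1 and quantified unambiguous exonic spans of RefSeq genes merged without regard to strand. The submitters' processing notes also name Bowtie 0.12.8, CASAVA 1.8.2 and bedtools 2.16.2. The deposited files give, per gene and tumor, an expected count (from base-wise coverage, not whole) and an RPKM value that the authors normalized by exonic length and total mapped reads. Because counting ignored strand, reads of overlapping antisense genes cannot be told apart.

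Expected counts were rounded and tested with edgeR 4.0.16 (R 4.3.3; quasi-likelihood F test, TMM normalization) on the 17561 of 22630 genes whose counts reached 10 in sum, in 1 fit of the 3 groups without covariates. P-values were adjusted by the Benjamini-Hochberg method over all genes tested. The limits for a call are those of the study: adjusted p under 0.1, more than 1.5-fold, mean above 0.25 RPKM, length above 250 bp. The study set them on adjusted p values of DESeq2, while the main calls here set them on those of edgeR. Overlap between groups was read on log2 CPM with a prior count of 2. The fits were tested on simulated data, with changes larger than those of most members, set in genes with higher mean counts than Fgf21. That test does not bear on small changes or low counts. Alternatives were DESeq2 1.42.0, limma-voom 3.58.1 with weights per tumor, other normalization, filters and covariates, a block for the replicate number, and each tumor left out in turn. At 19845923 to 33137609 counted reads per tumor, the lowest count of a member in a tumor was 4 for Fgf21, 29 for Gdf15 and 64 for Chac1.

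The members and lists were chosen with earlier results of these data known. Values in every tumor with fold change, SE and p are given for every member called, the 6 members with the smallest unadjusted p in each pair, the member with the highest mean RPKM in each role, and Atf4, Ddit3 and Xbp1. Of the pathway list, the 3 genes with the smallest p per pair are named. Dnajc3 and the genes of the promoter motifs were added after their values were seen. Of 36 members, 32 matched a RefSeq promoter window (GRCm38.p6), and the printed stretches were placed on mm9 by exact match. Lists of markers of 12 cell types or states were summed, of which epithelial, muscle, adipose and acinar markers stand beside results. Replicate numbers did not pair the tumors. One further allele, carried by the line and so shared by all groups, is not reported here.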

Additional observations from a re-analysis of the deposited data

Results flagged for a closer look

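Within groups of 4 tumors, 8 of the 108 groups looked at (36 members in 3 groups) held a tumor far from the other 3 by Dixon's criterion, and chance flags about 1 in 20 groups. Of these, 5 were in plus-dox tumor 2, which stood apart over all genes. There, Eif2ak3 was at 6.51 RPKM against 11.68 to 12.7 in the other plus-dox tumors, and its ratio lay at the critical value. Mthfd2 was at 10.9 RPKM there against 6.90 to 7.48, Creld2 at 32.6 against 24.3 to 25.6, Manf at 58.8 against 39.7 to 41.1, and Sel1l at 14.3 against 17.7 to 18.4.

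Off-dox tumor 4, the other tumor that stood apart, held Phgdh at 210.8 RPKM against 53.9 to 72.4 in the other off-dox tumors. Among no-dox tumors, Shmt2 was at 24.9 RPKM in tumor 2 against 17.6 to 18.7, and Mthfd2 at 8.11 in tumor 3 against 6.27 to 6.57.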

How the results depend on the processing

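Genes called in plus-dox against no-dox rose from 0 to 128 by DESeq2 without and 90 with moderated fold changes and 112 by limma-voom, and were 0 to 3 when tumors were left out in turn. The member called was 1 by each DESeq2 setting, Fgf21. In off-dox against no-dox the 235 genes became 615, 396 and 643 by these 3 tools, 122 with no filter on counts, 365 with 10 counts in every tumor, 3 with the 8 tumors of the pair alone, 474 without plus-dox tumor 2 and off-dox tumor 4, and 0 at an adjusted p under 0.05 or with the share of reads on genes as a covariate. They were 0 to 786 when tumors were left out, with 0 for no-dox tumors 1, 2 or 4, plus-dox tumor 4 or off-dox tumors 2, 3 or 4, 1 if no-dox tumor 3 was left out, 19 for plus-dox tumor 3 and 786 for off-dox tumor 1. Members called were 1 by DESeq2 without moderation and 1 by limma-voom, Xbp1 in both, and 0 to 2 with tumors left out (Xbp1 and Herpud1 without off-dox tumor 1). In off-dox against plus-dox 6 and 4 genes were called by DESeq2 without and with moderation, and 0 to 1 with tumors left out. Members without overlap in off-dox against no-dox were 1 on log2 CPM (higher) and 5 in RPKM (3 lower, 2 higher), an alternative chosen after seeing the data, and in plus-dox against no-dox 4 (all lower) became 5 (3 lower, 2 higher). With the replicate block 0 genes were called in off-dox against no-dox tumors. Replicate numbers did not pair the tumors (mean correlation of same-numbered tumors -0.088, and 3 of 24 best matches with the own number), and under the block Gdf15 in plus-dox turned to -0.0266, while no other named member changed direction. The sign also turned for small estimates, in log2 fold change. With limma-voom these were Eif4ebp1 (-0.1274) and Gdf15 (-0.4079) in plus-dox and Phgdh (-0.2341) in off-dox against no-dox. With the share of reads on genes they were Atf5 (-0.0368), Gdf15 (-0.1592) and Phgdh (0.624) in plus-dox. Without plus-dox tumor 2 and off-dox tumor 4 they were Eif4ebp1 (-0.1859) and Gdf15 (-0.1187) in plus-dox and Eif4ebp1 (-0.0806) and Phgdh (-0.5255) in off-dox. With tumors left out in turn the ranges crossed 0 in plus-dox against no-dox for Atf4 (-0.1317 to 0.0272), Ddit3 (-0.0526 to 0.1737), Eif4ebp1 (-0.1813 to 0.1305), Gdf15 (-0.3006 to 0.2663) and Phgdh (-0.4051 to 0.1983), in off-dox against no-dox for Eif4ebp1 (-0.0850 to 0.1387) and Phgdh (-0.5287 to 0.3928), and in off-dox against plus-dox for Asns (-0.0104 to 0.4131). The cause was not tested. Fgf21, with 4 to 52 reads per tumor, is limited by depth.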
